A study of Mus musculus with 20 samples.

Results

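The Notch signalling genes described here are 10 listed genes, out of 23260 in the count table: the ligand genes Dll1, Dll3 and Dll4, the receptor gene Notch1, the Fringe genes Lfng and Mfng, the nuclear effector gene Rbpj, and the bHLH genes Hes1, Hes5 and Hes6. Their UMIs (unique molecular identifiers, which count captured transcripts) were summed in each library over the cells of each type that the authors named, and a level is given as CPM, the gene's UMIs scaled to the UMIs of that type in that library. All groups came from retinal explants of CD1 wildtype mice, pieces of retina kept in culture, which were electroporated with a pCAGIG plasmid. The plasmid carried GFP alone (control), GFP with MEIS1, GFP with MEIS2, or a 50:50 mixture of the MEIS1 and MEIS2 plasmids (combination). GFP+ cells were isolated before 10x Genomics 3′ sequencing, so the cells examined are those that took up a plasmid. At each stated age, P2 and P5 (postnatal day 2 and 5), there are 4 control, 2 MEIS1, 2 MEIS2 and 2 combination libraries, 20 in all.

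In Notch signalling a ligand on one cell binds a Notch receptor on its neighbour. The receptor is cut, and its intracellular part enters the nucleus, where with the DNA-binding protein RBPJ it switches on genes such as Hes1 and Hes5. HES1 and HES5 repress proneural genes, and so keep a retinal progenitor from differentiating. Proneural factors in turn switch on Delta-like ligands, so a cell that begins to differentiate becomes a sender and its neighbours become receivers. DLL1 and DLL4 activate the receptor on the next cell, whereas DLL3 acts mainly inside the cell that makes it. Lunatic and Manic Fringe, encoded by Lfng and Mfng, add sugars to Notch and change how it answers its ligands. HES6 counteracts HES1 and is known from differentiating neurons. In the mature retina, Hes1 and Hes5 are known from Müller glia, the cells that late progenitors give rise to beside rods, bipolar and amacrine cells.

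The labels do not always match each other. The treatment tag names MEIS1 for all P2 single-construct libraries and MEIS2 for all P5 ones, the design text names NR2F1 and NR2F2 and gives 2 or 5 days of treatment, and the cell names open with their library's title in only 10 of 20 libraries. The names in P2 control 1 are those of a combination library, and P2 combination 2 has the names of a control. Titles and the deposited sample column were followed. In progenitors, Meis1 stood at 2099 to 2630 CPM in the P2 MEIS1 libraries against 164.3 to 353.6 in P2 controls, and at 3137 to 3750 against 183.5 to 207.1 at P5. Meis2 stood at 861 to 1830 CPM in the P2 MEIS2 libraries against 95.04 to 197.1 in P2 controls, and at 847.9 to 971.4 against 34.61 to 50.14 at P5. The P2 combination libraries held Meis1 at 886.5 to 1001 CPM and Meis2 at 671.3 to 912.8, above all P2 controls for both genes, so by these levels P2 control 1 lies with the controls and P2 combination 2 with the combination, as titled. Libraries held 1625 to 17739 cells and 2376875 to 141540352 UMIs, P2 MEIS2 replicate 2 being the shallowest at a median of 992 UMIs a cell. That library also stands apart in 9.996% of UMIs from Malat1, a nuclear RNA, against 2.5255% to 4.4082% in the others, and in a median of 0.3866% mitochondrial UMIs against at least 2.005%. Among all libraries 744 cell barcodes occurred in more than 1 library. Nothing in the labels says that libraries came from separate animals, so the p-values measure the spread between libraries, which may be technical.

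Of the 79009 cells, 11818 were progenitors and 9239 neurogenic cells, the state between a progenitor and a neuron, with 38650 rods and 13556 amacrine cells. Each of these types had at least 20 cells in all 20 libraries. Bipolar cells (4530) reached that number in 12 libraries, cones (842) in 7, Müller glia (221) in 4 and starburst amacrine cells (98) in 2, while horizontal cells (55) reached it in none and are left out. Of the markers listed for a type, 6 of 10 were highest in their own type in progenitors, 4 of 10 in neurogenic cells, 7 of 8 in rods, 4 of 7 in amacrine cells, 7 of 9 in bipolar cells, 8 of 8 in cones and 4 of 9 in Müller glia. Among the progenitor markers, Sox2, Pax6 and Sfrp2 were highest in another type.

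Promoter sequences are shown first, since RBPJ and proneural factors are known to bind short runs of letters that can be looked for in them. The RefSeq table (GRCm38.p6) held no window for Hes1 or Mfng, so their promoters were not searched. For the other 8 of the 10 genes it held 11 windows, from 250 bases before to 50 after a transcription start. They were searched on both strands for GTGGGAA, the letters that RBPJ binds, and for CAGCTG, an E-box of the kind that proneural bHLH factors bind. The stretches below give 14 bases on each side of a match, with the match in capitals.
Hes5, 226 bases before the start, chr4:154960683-154960717, plus strand, motif on the other strand: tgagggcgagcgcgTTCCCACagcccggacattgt
Hes5, 83 bases before the start, chr4:154960826-154960860, plus strand: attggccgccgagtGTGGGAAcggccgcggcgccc
Lfng, 109 bases before the start, chr5:140607218-140607252, plus strand: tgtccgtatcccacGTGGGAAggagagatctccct
Dll1, 132 bases before the start, chr17:15377045-15377078, minus strand: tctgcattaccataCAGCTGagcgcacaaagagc
Dll3, 7 bases before the start, chr7:28301773-28301806, minus strand: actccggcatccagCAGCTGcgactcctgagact
Lfng, 146 bases before the start, chr5:140607181-140607214, plus strand: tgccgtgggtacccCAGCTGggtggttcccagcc
Lfng, 1 base after the start, chr5:140607328-140607361, plus strand: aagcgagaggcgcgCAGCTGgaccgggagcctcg
Hes6, 171 bases before the start, chr1:91414190-91414223, minus strand: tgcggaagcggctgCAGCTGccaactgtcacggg
The Hes5 window held GTGGGAA at 2 places, which 0.256% of 32851 windows do, and 6.38% hold it at least once. The E-box was found before Dll1, Dll3 and both Hes6 starts, the Hes6 match not printed lying 150 bases before the other start at chr1:91413353-91413386, and 16.3% of all windows hold it at least once. Lfng, highest in progenitors, held GTGGGAA once and the E-box at 2 places, which 1.9% of windows do. The letters thus do not divide the genes that have a window by the type in which they are highest. Windows of Notch1, Dll4, Rbpj and the other Dll1 start held neither run of letters. A match is a description of the sequence, not a measured site.

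By the median over all libraries, the ligand genes were highest in neurogenic cells. Dll1 (chr17:15367354-15376872, mm10, minus strand) ranged from 38.34 to 96.69 CPM there, with a median of 60.26 over 20 libraries, and from 3.255 to 73.5 in progenitors, with a median of 32.44. Neurogenic cells were above progenitors in 19 of 20 libraries, with a median ratio of 2.52 over both ages. In controls the medians in neurogenic cells and progenitors were 83.75 and 53.44 CPM at P2 and 53.59 and 10.79 at P5, so the ratio was larger at P5. Cones followed at a median of 27.06 CPM in 7 libraries. Dll3 (chr7:28293553-28302238, minus strand) ranged from 16.2 to 215 CPM in neurogenic cells, median 94.83, and was 8.63 times its level in progenitors and 5.25 times that in rods by the median ratio over both ages, higher in 20 of 20 libraries against either. The median in neurogenic cells and progenitors was 141.1 and 26.36 CPM at P2, and 34.83 and 0.8576 at P5, so the ratio for Dll3 was larger at P5. Rods, amacrine cells and progenitors then followed for Dll3 at medians of 21.78, 16.19 and 10.51 CPM, and the library ranges of these neighbours overlapped. Their order differed by age, with rods at 43.31, progenitors at 26.36 and amacrine cells at 18.57 CPM at P2 and amacrine cells at 8.607, rods at 2.82 and progenitors at 0.8576 at P5. Dll4 (chr2:119325784-119335962, plus strand) ranged from 6.66 to 56.47 CPM in neurogenic cells, median 30.51, and was 7.61 times its progenitor level over both ages, higher in 20 of 20. The Dll4 medians of neurogenic cells and progenitors were 38.38 and 7.388 CPM at P2 and 13.35 and 0.4005 at P5. Amacrine cells held Dll4 at medians of 5.215 CPM at P2 and 13.86 at P5, so at P5 they lay level with neurogenic cells. Neurogenic cells were above amacrine cells for Dll4 in 16 of 20 libraries and below them in 4. Dll4 had no UMI in any of the 4 Müller libraries, where 3 UMIs would be 3.987 to 5.941 CPM.

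The receptor gene and the Hes genes that Notch switches on were ordered the other way, with progenitors above neurogenic cells. Notch1 (chr2:26457903-26516663, minus strand) ranged from 142.5 to 387.4 CPM in progenitors, median 239.1, and from 85.51 to 213.6 in neurogenic cells, median 168.3. Progenitors were above neurogenic cells in 20 of 20 libraries, by a median ratio of 1.47, and Müller glia (108.6), rods (57.11) and amacrine cells (30.73) followed in median CPM. By age, the Notch1 medians of progenitors, neurogenic cells and rods were 275.3, 150.9 and 108.8 CPM at P2 and 200.9, 171.3 and 28.63 at P5, so the neurogenic level lay nearer to rods at P2 and nearer to progenitors at P5. Hes1 (chr16:30064384-30067796, plus strand) ranged from 186.2 to 864.1 CPM in progenitors, median 451.8, and from 5.328 to 465.3 in neurogenic cells, median 60.6. Its progenitor level was 7.38 times the neurogenic level and 127.9 times the rod level by the median ratio, higher in 20 of 20 libraries against either. In controls the medians of Hes1 in progenitors and neurogenic cells were 397.8 and 21.59 CPM at P2 and 527.0 and 197.4 at P5, so the contrast was smaller at P5. Hes5 (chr4:154960923-154962371, plus strand) ranged from 327.4 to 1937 CPM in progenitors, median 1250, and from 227.6 to 1153 in neurogenic cells, median 652.4. Its drop between the 2 types was smaller, a median ratio of 1.52 with progenitors higher in 19 of 20 libraries. Neurogenic cells and rods held Hes5 at medians of 639.6 and 41.72 CPM at P2 and 661.0 and 8.567 at P5. In the 4 libraries with Müller glia, Hes1 there was 97.44 to 645.9 CPM and Hes5 64.38 to 972.4, with progenitors above Müller glia in 2 of 4 libraries for Hes1.

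The Fringe genes parted along the same line as senders and receivers. Lfng (chr5:140607320-140615545, plus strand) ranged from 22.15 to 83.03 CPM in progenitors, median 37.78, and from 3.224 to 25.03 in neurogenic cells, median 8.354, a median ratio of 4.18 over both ages with progenitors higher in 20 of 20 libraries. The Lfng medians of progenitors and neurogenic cells were 37.78 and 5.745 CPM at P2 and 40.36 and 14.66 at P5, so the ratio was smaller at P5. Müller glia followed progenitors with 11.88 to 26.1 CPM in 4 libraries, and rods had a median of 0.523. Mfng (chr15:78755882-78773475, minus strand) ran the other way, at 36.48 to 120.7 CPM in neurogenic cells, median 66.11, and 1.357 to 46.72 in progenitors, median 20.77. Neurogenic cells were 3.83 times progenitors for Mfng over both ages, higher in 20 of 20 libraries, with medians of 98.82 and 38.03 CPM at P2 and 42.3 and 4.268 at P5. The order of progenitors and rods for Mfng differed by age: in P2 controls progenitors held 27.4 to 38.99 CPM and rods 25.82 to 31.98, progenitors being higher in 2 of 4 libraries, and in P5 controls progenitors held 1.357 to 9.022 and rods 8.581 to 11.59, rods being higher in 4 of 4.

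Rbpj and Hes6 were measured in every type. For Hes6 the medians of progenitors and neurogenic cells were 569.8 and 585.5 CPM at P2 and 122.5 and 461.2 at P5. Hes6 (chr1:91411483-91414038, minus strand) had medians of 503.5 CPM in neurogenic cells, 389.5 in progenitors, 214.6 in rods, 168.6 in bipolar cells and 96.73 in amacrine cells, with neurogenic cells above progenitors in 16 of 20 libraries. Rbpj (chr5:53466152-53657362, plus strand) had medians of 171 CPM in neurogenic cells, 135.7 in amacrine cells, 119.3 in rods and 102.8 in progenitors. Rbpj in neurogenic cells was 1.69 times that in progenitors, higher in 20 of 20 libraries, and rods were also above progenitors in 20 of 20. The gene for the effector of the pathway was therefore lowest, among these 4 types, in the progenitors that held most Hes1 and Hes5.

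Dll3, Dll4, Mfng and Rbpj were higher in neurogenic cells than in progenitors in every library, and Notch1, Hes1 and Lfng were higher in progenitors in every library. Over all 13909 genes with a mean of at least 1 CPM in these types, 13% were higher in neurogenic cells in all 20 libraries and 10.3% higher in progenitors. The authors named the cell types from these same counts, and the clusters may rest in part on these genes, so the differences between types are a description and were not tested. Levels here are relative to the UMIs of a type, and a smaller share of cells with the transcript and fewer transcripts per cell give the same value.

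**Figure D1:**
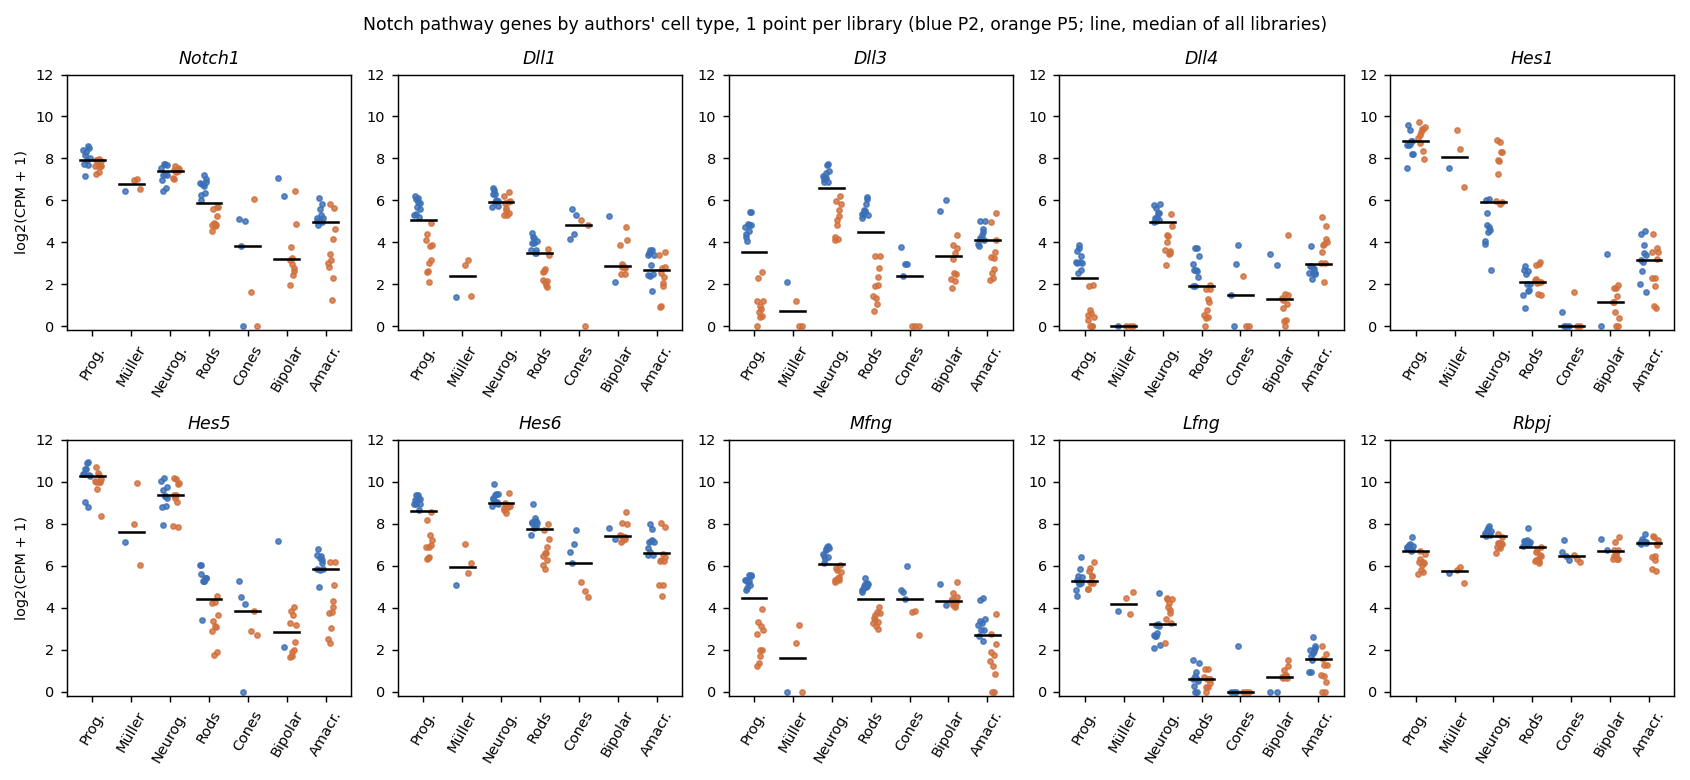
Levels of the 10 genes as log2(CPM + 1) in 7 cell types, 1 point per library (blue, P2; orange, P5), with a line at the median over libraries. By that median, Dll1, Dll3, Dll4 and Mfng peak in neurogenic cells, and Notch1, Hes1, Hes5 and Lfng in progenitors.

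The genes whose levels ran most like those of these 10 were sought by Pearson correlation of mean log2 CPM over 38 combinations of cell type and group, among 9558 genes with a mean of at least 10 CPM. These are descriptions, since combinations share libraries, controls and depth. Dll1 ran most like Hes6 (r = 0.903), Rrs1 (0.868) and Mybl1 (0.863), and Dll4 most like Dll3 (0.864), Zc3h12c (0.847) and Gadd45g (0.843). Mfng ran most like Hes6 (0.847), Dll1 (0.837) and Cdc73 (0.835), so that 2 of its 3 nearest genes are members of the list. Hes5 ran most like Kdr (0.964), Sox2 (0.962), a transcription factor of progenitors and glia, and Nr2e1 (0.961). Notch1 ran most like Gng5 (0.931), Gpc4 (0.923) and Gli3 (0.922), and Hes6 most like Tpm4 (0.922), Tprn (0.908) and Btbd17 (0.905). Dll3 ran most like Rbpj (0.94), Bcl7a (0.933) and Atoh7 (0.908), and Rbpj most like Dll3 (0.94), Atoh7 (0.89) and Prrc2c (0.886). Hes1 ran most like Kcnj10 (0.973), Sox8 (0.972) and Zfp36l1 (0.971), and Lfng most like Sox8 (0.97), Prss23 (0.968) and Gm29260 (0.967).

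The 4 control libraries of each age show how the pathway differed between P2 and P5 without a MEIS construct. The design text gives 2 or 5 days of treatment. If these days follow the stated ages, age cannot be told apart from time in culture or since electroporation. In progenitors Dll1, Dll3, Dll4, Mfng, Hes6 and Rbpj fell, while Notch1, Hes1, Hes5 and Lfng did not pass the test. Dll1 stood at 37.99, 73.5, 66.72 and 40.16 CPM in P2 control progenitors and at 16.28, 5.06, 20.04 and 5.3 at P5. The groups did not overlap, and the log2 fold change was −2.23 ± 0.44 (SE), a 4.68-fold fall (edgeR's quasi-likelihood test, Benjamini-Hochberg adjusted p = 0.00257). Dll3 went from 25.71, 20.3, 18.35 and 15.99 CPM to 1.302, 0, 3.904 and 0.6235, a fall of 12.2-fold (log2 −3.61 ± 0.58, edgeR adjusted p = 0.000546). Every P5 library was below every P2 library, and replicate 2 at P5 had no Dll3 UMI. Dll4 went from 7.48, 7.107, 11.14 and 4.785 CPM to 0.4341, 0.2468, 2.776 and 0, which at P5 are 2, 2, 32 and 0 UMIs (log2 −2.88 ± 0.65, edgeR adjusted p = 0.00744).

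Mfng stood at 38.24, 38.99, 27.4 and 29.71 CPM in P2 control progenitors and at 5.643, 1.357, 9.022 and 1.559 at P5, a fall of 7.28-fold (log2 −2.86 ± 0.43, edgeR adjusted p = 0.000332). Hes6 went from 483.2, 567.7, 670.6 and 493.2 CPM to 118.7, 77.75, 289.9 and 81.68 (log2 −2.01 ± 0.39, edgeR adjusted p = 0.0022). For both genes P5 control 3 was the highest library of its age and still below every P2 library. Rbpj went from 112, 118.8, 116.9 and 125.5 CPM to 47.31, 71.33, 80.07 and 103.2 (log2 −0.68 ± 0.21, edgeR adjusted p = 0.0346), a call that was lost when P2 control 2, 3 or 4 or P5 control 1, 2 or 3 was left out (edgeR adjusted p from 0.0515 to 0.108).

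The receptor and its targets kept high levels in P5 progenitors. Hes5 stood at 1314, 1335, 1536 and 520.6 CPM at P2 and at 1044, 1643, 1030 and 816.2 at P5 (log2 −0.05, edgeR adjusted p = 0.956). Hes1 stood at 186.2, 394.7, 774.9 and 400.9 CPM and at 494.9, 864.1, 425.2 and 559 (log2 +0.36, edgeR adjusted p = 0.60), with overlapping groups. Notch1 stood at 341.7, 211.2, 142.5 and 287.8 CPM and at 197.5, 154.0, 241.9 and 243.5 (log2 −0.22, edgeR adjusted p = 0.555), and Lfng at 27.46, 39.39, 22.15 and 44.57 and at 28.87, 28.75, 53.44 and 58.3 (log2 +0.32, edgeR adjusted p = 0.419). A p that misses the threshold does not show that these levels were equal. Of 14849 genes tested in progenitors, 6.96% were lower and 10.6% higher at P5, against 6 lower and 0 higher of the 10 members, whose median log2 fold change was −1.34 beside −0.04 over all genes. With controls 3 and 4 only, 2 members were called, Dll3 and Mfng.

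In neurogenic cells Dll3, Dll4 and Mfng fell as well, but Dll1 did not pass the test, and Hes1 and Lfng rose. Dll1 stood at 50.79, 77.89, 96.69 and 89.6 CPM at P2 and at 72.74, 38.34, 58.28 and 48.91 at P5, with overlapping groups (log2 −0.64, edgeR adjusted p = 0.124). Dll3 went from 144.2, 128.4, 116.3 and 137.9 CPM to 18.24, 16.2, 60.74 and 32.2 (log2 −2.14 ± 0.31, edgeR adjusted p = 0.000206), and Dll4 from 30.03, 54.04, 34.76 and 48.31 to 11.51, 6.66, 19.15 and 15.19 (log2 −1.76 ± 0.30, edgeR adjusted p = 0.00084). Both ligand genes were lower in every P5 library than in every P2 library. Mfng went from 92.24, 86.63, 68.33 and 78.62 CPM to 36.48, 39.24, 57.73 and 40.1, about −0.99 ± 0.17 on the log2 scale (edgeR adjusted p = 0.000677). Hes1 stood at 14.03, 15.5, 63.53 and 27.67 CPM at P2 and at 61.66, 465.3, 149.8 and 244.9 at P5, a rise of 7.12-fold (log2 +2.83 ± 0.73, edgeR adjusted p = 0.018). Replicate 3 at P2 and replicate 1 at P5 overlapped, and the Hes1 call was lost without P2 control 2 (edgeR adjusted p = 0.0656), P2 control 4 (0.0516) or P5 control 2 (0.078).

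Lfng in neurogenic cells went from 3.224, 5.563, 5.194 and 5.27 CPM to 3.908, 9.9, 20.66 and 20.05 (log2 +1.46 ± 0.44, edgeR adjusted p = 0.0452), and this call was lost in 7 of the 8 fits that left out a control library (adjusted p from 0.0573 to 0.145). Hes5 stood at 1055, 437.1, 772.8 and 240.9 CPM at P2 and at 233.6, 1153, 656.6 and 595.1 at P5, with a log2 fold change of 0.00. The 4 libraries of either age spread over more than the difference between ages for Hes5. Hes6 (log2 −0.70, edgeR adjusted p = 0.105), Rbpj (log2 −0.58, adjusted p = 0.0526) and Notch1 (log2 +0.14) did not pass, though Rbpj was called with the replicate number as a block. DESeq2 called 7 of the 10 members in this comparison, so some that missed the threshold by edgeR passed there. Over all genes DESeq2 called 1430 and edgeR 1274. Of 13745 genes tested in neurogenic cells, 2.6% were lower and 6.67% higher at P5, against 3 lower and 2 higher of the 10 members. Their median log2 fold change was −0.61 beside 0.00 over all genes.

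**Figure D2:**
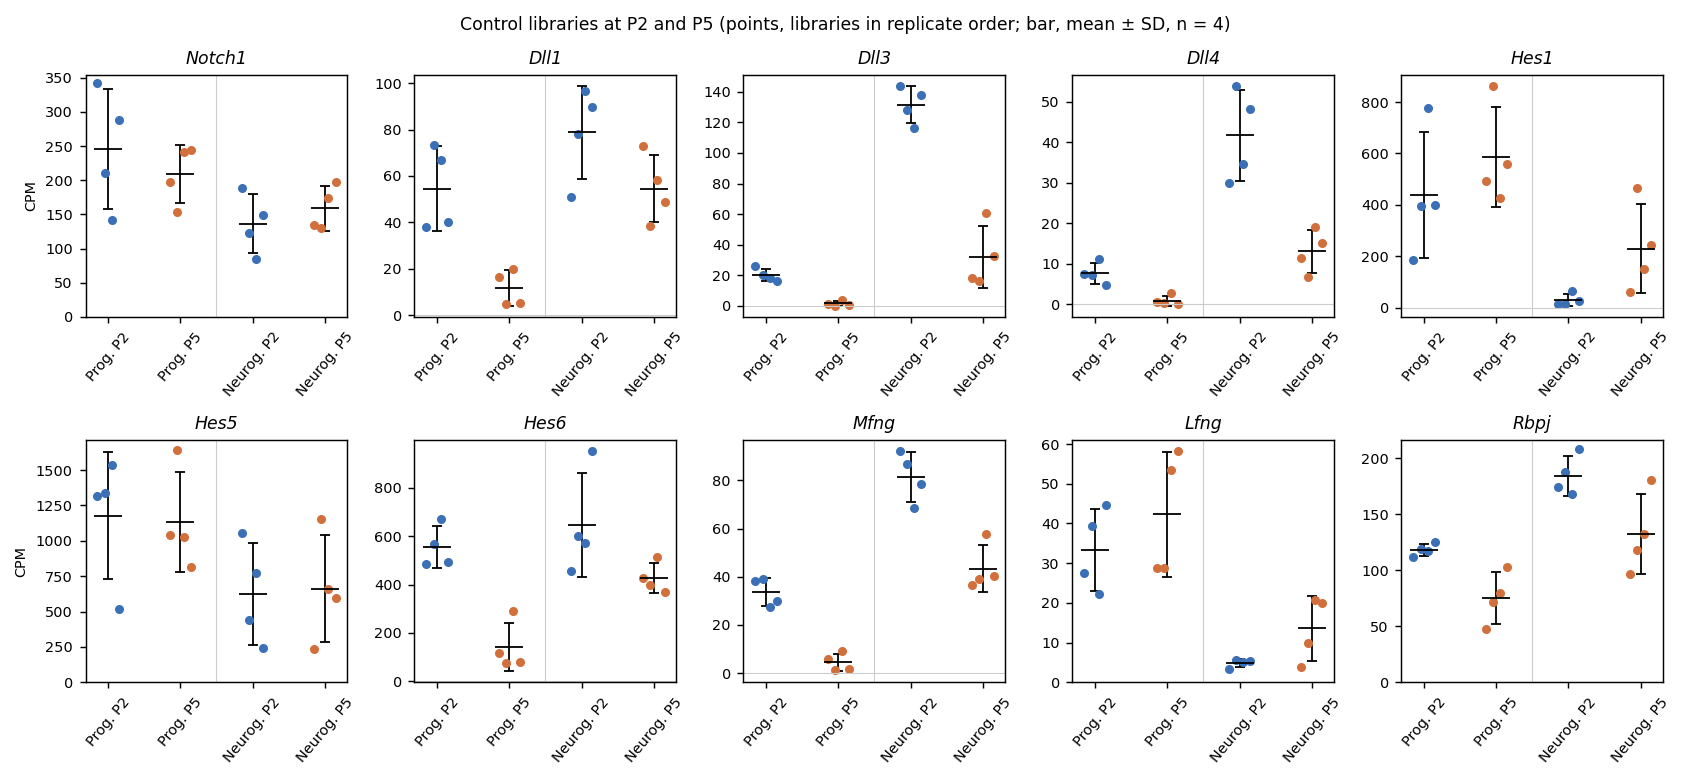
CPM of each gene in the 4 control libraries of P2 and of P5, in progenitors and in neurogenic cells, 1 point per library with the mean ± SD (n = 4). In progenitors the P5 points of Dll1, Dll3, Dll4, Mfng and Hes6 lie below all P2 points, and those of Hes5 and Notch1 overlap them.

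Markers of other states moved with age in the same cells. The summed level of 9 Müller glia markers in control progenitors was 1533 to 3823 CPM at P2 and 9761 to 17470 at P5, and 8 of the 9 rose: Apoe, Aqp4, Car14, Clu, Glul, Kcnj10, Rlbp1 and Slc1a3. In neurogenic cells it was 546.6 to 797.6 CPM at P2 and 2934 to 4818 at P5, with 6 of 8 tested markers up. Neurogenic markers summed to 627.4 to 1154 CPM in P2 control progenitors and 245.1 to 1118 at P5, and to 2445 to 6187 and 1111 to 3465 in neurogenic cells. Of 15 genes of a neurogenic list, 9 fell in progenitors, led by Atoh7 (log2 −5.26), Sstr2 (−3.28) and Insm1 (−2.34), and Btg2 rose. In neurogenic cells 4 of 14 tested fell, among them Atoh7, Neurod1 and Olig2, and none rose. Endothelial markers summed to 275.8 to 515.4 CPM in P2 control progenitors and 633.1 to 881.7 at P5, and markers of ganglion cells, pigment epithelium, microglia, astrocytes, pericytes and red blood cells to at most 38.87 CPM for any 1 of these lists. Median UMIs per progenitor were 5503 to 12424.5 at P2 and 10925.5 to 24147 at P5. The median mitochondrial share of UMIs in control progenitors was 1.846% to 3.776% at P2 and 3.319% to 6.914% at P5, and in P5 control 1 it reached 10.09% in rods and 15.19% in amacrine cells. The part of these shifts in the changes of the Notch genes was not tested.

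Other genes of the pathway, 52 measured of a list of 54 that held receptors, ligands, secretase subunits, co-factors and targets, moved in both directions. Over all genes 10.6% rose and 6.96% fell in progenitors, so the share of the list that rose is near that of any genes. In progenitors 5 of 48 tested rose, led by Bhlhe40 (log2 +2.78), Dtx1 (+0.83), Aph1c (+1.30), a subunit of the secretase that cuts Notch, and the co-activator gene Maml2 (+0.80). The 6 that fell were led by the co-repressor gene Tle4 (log2 −1.33), Fbxw7 (−0.77), whose product marks cut Notch for breakdown, Cir1 (−0.56) and Itch (−0.50). In neurogenic cells 5 of 47 rose, led by Neurl1a (log2 +1.64), Dtx4 (+2.13), the receptor gene Notch2 (+3.05) and the target gene Hey2 (+1.26), and 4 fell: Tle4 (−1.37), Numbl (−0.69), Cir1 (−0.52) and Itch (−0.54), where 6.67% of all genes rose and 2.6% fell. The medians of this wider list were −0.01 in progenitors and −0.01 in neurogenic cells, near those of all genes.

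The difference between the 2 types was tested in 1 model with library as a block, chosen after the separate results were seen. The P5 change in neurogenic cells less that in progenitors was +1.56 ± 0.30 for Dll1 on the log2 scale (edgeR adjusted p = 0.0069), +1.57 ± 0.37 for Dll3 (0.0173), +1.90 ± 0.33 for Mfng (0.0043), +1.47 ± 0.31 for Hes6 (0.0107), +2.16 ± 0.41 for Hes1 (0.0068) and +1.08 ± 0.33 for Lfng (0.0485). The change of Dll1, Dll3, Mfng and Hes6 was thus less negative in neurogenic cells than in progenitors, and that of Hes1 and Lfng more positive. Dll4 (+1.09, edgeR adjusted p = 0.221), Notch1 (+0.31, 0.081), Hes5 (−0.05) and Rbpj (+0.05) did not pass. Of 13320 genes tested, 7.52% were called in the higher direction, against 6 of 10 members, with a median of 1.28 for the members and 0.02 for all genes. The neurogenic list had a median of 1.41 in the same test, with 3 of 13 genes called higher and 1 lower, and the progenitor list 0.96, with 3 of 10 called higher, and their part in the members' result was not tested. The number called ranged from 4 to 7 when 1 control library was left out, Dll3 being lost without P2 control 1 (edgeR adjusted p = 0.0575) and Lfng in 6 of 8 such fits. Of the wider pathway list, 7 of 45 were called in the higher direction, led by Dtx4 (+1.75), Notch2 (+2.06), the Notch target Heyl (+1.94) and Neurl1a (+1.81), and 3 in the lower direction, Maml2, Maml3 and Aph1c.

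In control rods 8 of 10 members fell between the ages, with none rising, against 5.94% lower and 7.24% higher of 14786 genes. Hes1 and Lfng did not pass, and with controls 3 and 4 only 4 members were called. Dll3 went from 40.1, 34.27, 38.98 and 46.02 CPM to 1.704, 0.6507, 9.221 and 2.797, and Notch1 from 112.9, 76.22, 63.5 and 109 to 27.38, 22.23, 47.2 and 28.94 (log2 −1.61 ± 0.25). Mfng fell from 27.52, 25.82, 29.1 and 31.98 CPM to 8.581, 10.19, 11.59 and 9.79 (log2 −1.60 ± 0.19), and Hes5 from 64.28, 48.2, 65.15 and 9.499 to 6.373, 17.9, 9.39 and 2.367 (log2 −2.45 ± 0.60). Every P5 library lay below every P2 library for Dll3, Notch1 and Mfng, and Hes5 overlapped, through the low replicate 4 at P2. Hes6 (log2 −1.51 ± 0.37) lost its call without P2 control 4 or P5 control 2, and Rbpj, at 120.3 to 145.4 CPM at P2 and 72.82 to 106.1 at P5 (log2 −0.69 ± 0.17), without P5 control 2. Rod markers rose in the same cells, 8 of 8, from a sum of 1664 to 4375 CPM to 8805 to 14030, and 6 of 11 tested genes of the neurogenic list fell, and how far these shifts go with the Notch genes was not tested.

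In amacrine cells, inhibitory interneurons, none of 9 tested members passed by edgeR or by DESeq2, 2 were below an unadjusted p of 0.05 (Hes5, log2 −1.75, and Mfng, log2 −2.21), and 0.0458% of 13097 genes were lower and 0.351% higher. With the replicate number as a block Hes5 was called lower at P5. P5 control 3 stood apart here: Notch1 was 56.63 CPM in it against 6.145 to 9.756 in the other 3 P5 controls, and Hes5 71.2 against 3.902 to 12.29. Without that library and P5 combination 1, the other P5 library with high Hes6, Notch1 and Hes5 were called lower at P5, and the counts of members called were 5 in progenitors, 4 in neurogenic cells and 8 in rods. That exclusion was chosen after the values were seen.

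Where the transcripts of the 3 ligand genes sat among the cells was described as a share of all Dll1, Dll3 and Dll4 UMIs of a library. Neurogenic cells held 41.4% ± 6.67 (SD, n = 4) of them in P2 controls and 59.0% ± 5.68 in P5 controls, while they were 12.2% and 9.64% of the cells. Progenitors held 28.4% ± 9.0 at P2, being 20.4% of the cells, and 9.62% ± 5.71 at P5, being 9.23% of the cells. Ligand transcripts were thus concentrated in neurogenic cells at both ages. In P5 control progenitors the share of ligand UMIs and of cells was 9.151% and 3.099%, 8.238% and 9.502%, 17.4% and 17.16%, and 3.696% and 7.147% in replicates 1 to 4. Progenitors held more UMIs per cell than rods, so their share of all UMIs of the library was larger than their share of cells, at 12.52%, 23.84%, 28.88% and 14.72% in these 4 libraries, and the ligand share lay below it in each. In P2 control progenitors the share of ligand UMIs and of all UMIs was 23.7% and 22.67%, 30.81% and 29.02%, 39.87% and 39.16%, and 19.25% and 33.49% in replicates 1 to 4, so beside their UMIs progenitors held about as much in 3 libraries and less in replicate 4. Neurogenic cells held 12.52% to 18.31% of all UMIs in P5 controls and 12.49% to 19.2% in P2 controls. The neurogenic share of ligand UMIs lay between 33.68% and 49.96% in P2 controls and between 52.04% and 65.13% in P5 controls, a difference of 17.6 points. With the MEIS libraries included the ages overlapped, since P2 MEIS2 replicate 1 held 56.28%. The control groups did not overlap for neurogenic cells or for progenitors (difference −18.8 points), and both gave a two-sided exact permutation p of 0.0286, the smallest that 4 against 4 libraries can give, which over 12 tests was an adjusted p of 0.171.

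For each ligand gene alone, the mean share of its UMIs in neurogenic cells was 32.9% at P2 and 58.0% at P5 for Dll1, 46.2% and 60.3% for Dll3, and 49.6% and 59.6% for Dll4. Progenitors held 46.7% of the Dll1 UMIs at P2 and 15.04% at P5. In P2 controls progenitors held more of the Dll1 UMIs than neurogenic cells in replicates 1 to 3, and in replicate 4 they held 35.02% against 44.79%. Hes1 and Hes5 UMIs sat mainly in progenitors, which held 79.4% of them at P2 and 69.8% at P5, against 15.3% and 27.0% in neurogenic cells. Notch1 was spread more widely, with progenitors at 56.4% and 50.2%, neurogenic cells at 15.3% and 31.2% and rods at 21.6% and 14.1%. Rods, 45.5% of the cells at P2 and 58.0% at P5, held 21.4% and 11.8% of the ligand UMIs. Bipolar cells held 0.331% and 12.6% of the ligand UMIs and were 0.263% and 15.8% of the cells. With any MEIS construct the neurogenic share was 43.7% at P2 against 41.4% in controls (exact permutation p = 0.667, 6 against 4 libraries) and 63.6% at P5 against 59.0% (exact permutation p = 0.29), differences within the spread of the libraries.

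**Figure D3:**
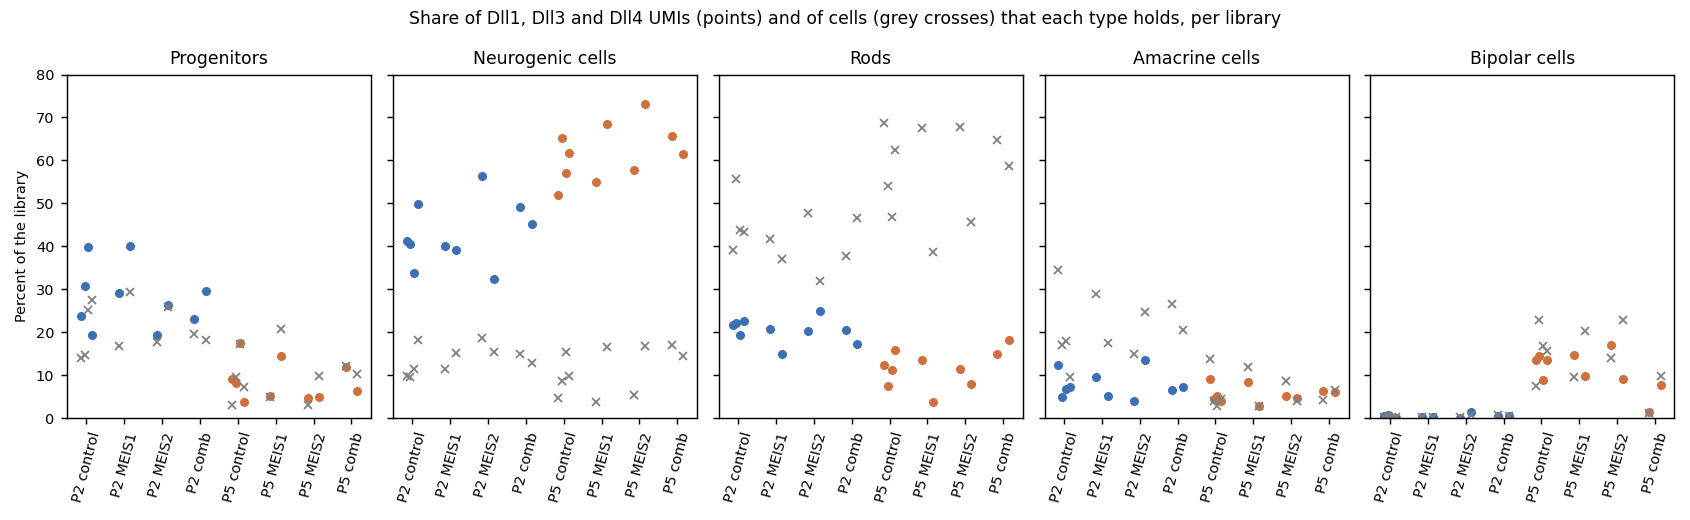
Percent of a library's Dll1, Dll3 and Dll4 UMIs held by each of 5 cell types (points, 1 per library) and percent of its cells that are of that type (grey crosses), in the 8 groups. Neurogenic points lie far above their crosses in all groups. Crosses are shares of cells, not of UMIs.

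Cells with and without a Dll1 or a Hes5 transcript were then compared within a type, as a view of senders and receivers. Each cell was thinned to 2000 UMIs, cells with at least 1 Dll1 UMI were summed apart from cells without one in each library, and the sums were compared with library as a block where both parts had at least 20 cells. Thinning drops transcripts, so the cells without a Dll1 UMI include many that held one before it. In neurogenic cells of P5 combination 1, 418 of 766 had a Dll1 UMI unthinned and 92 after thinning. The parts are thus not a clean division into senders and receivers. In neurogenic cells, those with a Dll1 transcript also held more of the target Hes5. Among 949 cells with and 7516 without a Dll1 UMI in 16 libraries, Hes5 had a median of 1196 CPM against 648.8, higher in 15 of 16 libraries (log2 +0.97 ± 0.08, edgeR adjusted p = 6.78e-18). Hes6 had a median of 736.5 CPM against 514.4, higher in 16 of 16 (log2 +0.51 ± 0.06, edgeR adjusted p = 1.02e-11). Hes1 (log2 +0.44 ± 0.14, edgeR adjusted p = 0.039) and Mfng (log2 +0.43 ± 0.14, 0.0326) also passed, but each was lost in 8 of the 16 fits that left out a library, and Mfng was lost by DESeq2. Hes1 was at log2 −0.21 when cells were split by any of the 3 ligand genes. Notch1 (+0.20), Dll3 (+0.04), Dll4 (+0.38, edgeR adjusted p = 0.292) and Rbpj (+0.16) did not pass. Of 5528 genes, 4.47% were higher and 3.76% lower in the cells with Dll1, against 4 and 0 of the 8 members tested.

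Counted as cells, a median of 50.97% of neurogenic cells with a Dll1 UMI also had a Hes5 UMI (18.75% to 66.67% over libraries), against 35.08% of those without (12.65% to 48.85%), higher in 16 of 16 libraries. In rods of the control libraries, thinned alike, 1.5% to 9.12% of cells had a Hes5 UMI at P2 and 0.657% to 4.41% at P5, and 1.90% to 3.91% and 0.824% to 1.23% a Dll1 UMI. The shares in neurogenic cells therefore lay above what rods hold at the same depth. Before thinning, median UMIs per cell in control libraries were 1728 to 7053 in rods and 3938 to 17277 in neurogenic cells.

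In progenitors, 841 cells with and 8533 without a Dll1 UMI were compared in 11 libraries, 9 of them P2. The P5 libraries were control 3, with 43 cells with Dll1, and combination 1, with 27, so the comparison rests mainly on P2. Cells with Dll1 held more Hes6, Mfng and Dll3. Hes6 had a median of 893.4 CPM against 498.6 (11 of 11 libraries; log2 +0.86 ± 0.06, edgeR adjusted p = 5.61e-21), and Mfng 68.22 against 33.33 (11 of 11; log2 +0.98 ± 0.19, 6.72e-05). Dll3 had a median of 42.28 CPM against 17.76 (9 of 11 libraries; log2 +1.16 ± 0.21, edgeR adjusted p = 3.7e-05). Dll4, too low for the test, had a median of 21.14 against 5.319, higher in 11 of 11. Hes5 was higher in the cells with Dll1 in 9 of 11 libraries, at a median of 1772 CPM against 1348, by a smaller log2 +0.30 ± 0.06 (edgeR adjusted p = 3.38e-05). Hes1 (+0.03), Lfng (−0.08), Notch1 (+0.24, edgeR adjusted p = 0.0629) and Rbpj (+0.33, 0.0827) did not pass. Of 6485 genes, 2.84% were higher and 3.55% lower, against 4 and 0 of the 8 members tested. With cells thinned to 1000 UMIs, Hes6 (log2 +0.82) was the 1 member called in progenitors and Hes5 did not pass (log2 +0.27, edgeR adjusted p = 0.0588).

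Of 9 tested genes of the neurogenic list, 7 were higher and none lower in progenitors with a Dll1 UMI, beside 2.84% of all genes higher, led by Neurog2 (log2 +2.01), Gadd45g (+1.52) and Mybl1 (+1.23). The list was mixed in neurogenic cells, where 5 of 11 were higher, beside 4.47% of all genes, led by Neurog2 (log2 +1.5), and including Gadd45g (+0.46) and Gadd45a (+0.50), and 2 lower, Neurod4 (−0.60) and Neurod1 (−0.49), factors of later differentiation. Müller markers were lower for 3 of 7 in progenitors with Dll1 and higher for 3 of 6 in neurogenic cells with Dll1. Of the progenitor list, 3 of 6 tested genes were higher and 0 lower in neurogenic cells with Dll1. In progenitors with Dll1, 3 of 9 were higher and 1 lower. How far the state of a cell along differentiation accounts for the joint presence of Dll1 and Hes5 was not tested.

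Split by Hes5 instead, neurogenic cells parted widely. In 19 libraries, 3048 cells with a Hes5 UMI were compared with 5812 without. Hes1 had a median of 141.3 CPM against 11.77, higher in 19 of 19 libraries, a 9.35-fold difference (log2 ± SE 3.23 ± 0.13, edgeR adjusted p = 2.77e-19). Dll1 had a median of 93.89 CPM against 41.35, higher in 19 of 19 (log2 +1.14 ± 0.12, edgeR adjusted p = 1.49e-09). Notch1 had a median of 235.8 CPM against 125.5, higher in 19 of 19 (log2 +0.85 ± 0.09), and Mfng (+0.76 ± 0.10) and Hes6 (+0.61 ± 0.06) were also called. The other ligand genes did not follow Hes5. Dll3 had a median of 62.59 CPM against 82.29, higher in 6 of 19 libraries (log2 −0.12), and did not pass. Dll4, too low for the test, had a median of 19.27 CPM against 25.11, lower in 11 of 19. Lfng, also too low for the test, had a median of 18.42 against 5.208, higher in 19 of 19.

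Many genes went with Hes5 in neurogenic cells: of 5681, 20% were higher and 17.2% lower, against 5 and 0 of the 7 members tested. Beside them, 5 of 6 tested genes of the progenitor list and 6 of 6 Müller markers were higher, Neurog2 was higher (log2 +1.46), and Neurod4 (−1.55) and Neurod1 (−1.25) were lower. Of the wider pathway list, 5 of 24 were higher, led by Fbxw7 (log2 +0.92), the Notch target Nrarp (+1.59), Tle1 (+0.63) and Tle4 (+0.48), and 4 were lower, Itch, Tle3, Mib1 and Dtx3. Over all genes 20% were higher and 17.2% lower, so these counts are near the background. In progenitors, 7800 cells with and 3463 without a Hes5 UMI in 20 libraries differed in Hes1 alone of the 6 members tested, at a median of 522.1 CPM against 297.4, higher in 20 of 20 (log2 +0.76 ± 0.06, edgeR adjusted p = 4.41e-18). Dll1 there was at log2 +0.31 (edgeR adjusted p = 0.146). Of 5330 genes, 1.16% were higher and 1.99% lower in progenitors with Hes5, so the split separated few genes in progenitors and many in neurogenic cells. The calls of all 4 splits were the same genes after predicted doublets were removed, although in 7 libraries under 0.5% of cells were predicted as such.

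**Figure D4:**
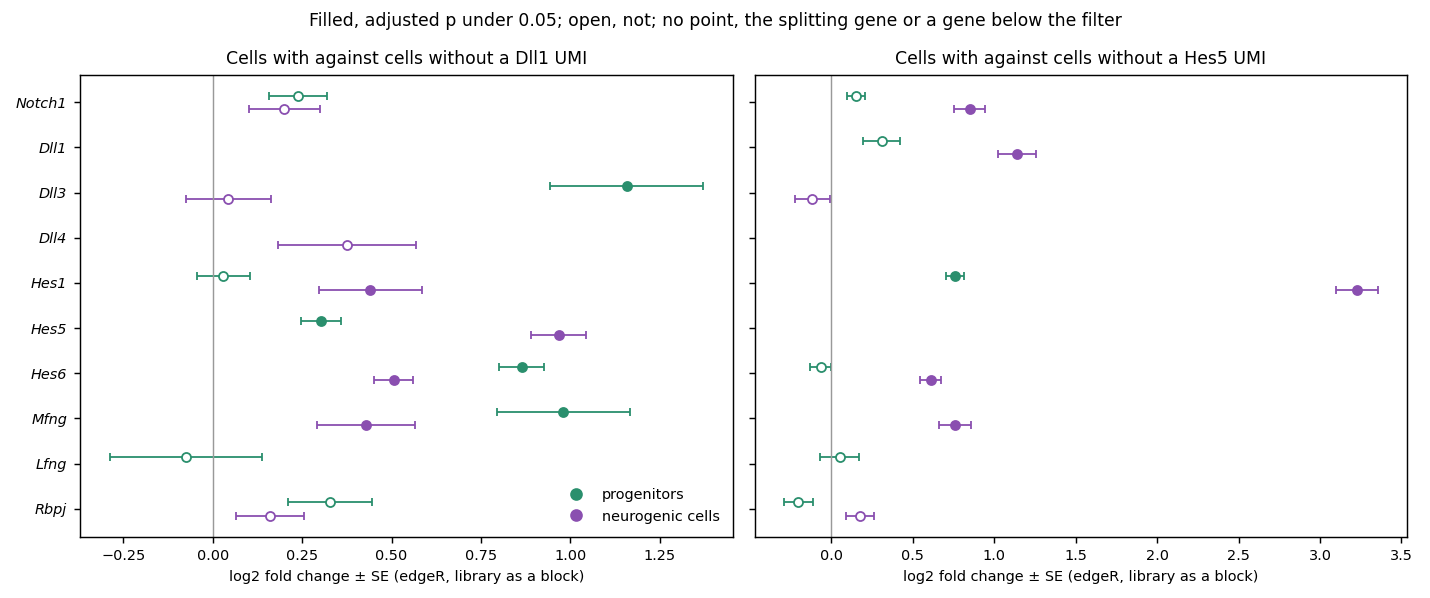
Log2 fold change ± SE of the members between cells with and without a Dll1 UMI (left) and with and without a Hes5 UMI (right), in progenitors and neurogenic cells thinned to 2000 UMIs, with filled points for an edgeR adjusted p below 0.05. Hes5 and Hes6 lie above 0 in both types on the left, and Hes1 lies above 0 in both on the right.

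The share of cells with a transcript was also compared across ages and constructs at 2000 UMIs per cell. A Dll1 UMI was found in 14.4% ± 3.53 (SD, n = 4) of neurogenic cells of P2 controls and 9.20% ± 2.16 at P5 (exact permutation p = 0.0857, adjusted p = 0.286), and without thinning in 32.3% and 38.1%. A Hes5 UMI was found in 70.0% ± 13.3 of progenitors of P2 controls and 64.8% ± 9.14 at P5 (exact permutation p = 0.486), and without thinning in 88.6% and 92.1%. Neither share differed beyond the spread of libraries, and the order of the ages turned with thinning for both. Thinning left out 158 of 5608 progenitors and 92 of 3516 neurogenic cells of P2 controls, and 6 of 1693 and 23 of 1711 of P5 controls. With any MEIS construct, 10.98% of neurogenic cells had a Dll1 UMI at P2 against 14.4% (exact permutation p = 0.0952) and 9.29% at P5 against 9.20% (0.962). Without thinning the order at P2 turned, with 36.7% against 32.3%, and at P5 the shares were 44.3% and 38.1%. Progenitors with Hes5 were 71.1% at P2 against 70.0% (exact permutation p = 0.89) and 59.0% at P5 against 64.8% (0.5). Without thinning these shares were 85.0% against 88.6% at P2, where the order turned as well, and 87.95% against 92.1% at P5. The unthinned P2 mean with MEIS includes 34.84% in the shallow P2 MEIS2 replicate 2. The other P2 MEIS libraries lay at 92.79% to 97.2%, and P2 controls at 80.96% to 94.8%. In P2 MEIS2 libraries 344 of 741 progenitors and 218 of 592 neurogenic cells were too shallow to enter.

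The MEIS constructs, which the series title ties to temporal patterning and neurogenesis, called no member in any type or contrast by edgeR or by DESeq2. Against the mean of the 3 construct groups at P2 and P5, edgeR called 0.0135% and 0.0202% of genes in progenitors, 0% and 0.00728% in neurogenic cells and 0% in rods and amacrine cells at either age, and the difference of the effect between ages called 0% in progenitors and in neurogenic cells. For single constructs in progenitors the shares were 0.00673% (MEIS1), 0.0404% (MEIS2) and 0.0135% (combination) at P2 and 0.00673%, 0.00673% and 0.0135% at P5. The neurogenic shares were 0.00728%, 0% and 0% at P2 and 0.00728%, 0% and 0.0218% at P5. With so few genes called in all, the 0 of the members carries little information. DESeq2 called more genes over the whole table, for example 539 against 6 for MEIS2 at P2 in progenitors, and no member among them. The wider pathway list and the neurogenic list also had 0 genes called.

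Over these contrasts, 9 pairs of member and contrast were below an unadjusted p of 0.05, and the values behind them are given as such. Each contrast tested 10 members, or 9 in amacrine cells. Over all types and contrasts, about as many pairs would fall below 0.05 by chance, though the contrasts share libraries and the pairs were not spread evenly. For the P5 combination, 3 of 10 members were below 0.05 in neurogenic cells, beside 575 of 13745 genes. In progenitors they were 2 of 10, beside 582 of 14849 genes. In neurogenic cells Dll4 was 40.19 and 26.45 CPM in the P5 combination libraries against 11.51, 6.66, 19.15 and 15.19 in P5 controls (log2 +1.39 ± 0.34, edgeR adjusted p = 0.267). Dll3 was 73.95 and 56.46 CPM there against 18.24, 16.2, 60.74 and 32.2 (log2 +1.07 ± 0.36, edgeR adjusted p = 0.722). Dll4 did not overlap with controls and Dll3 did, through P5 control 3, and Dll3 passed the adjusted threshold without that library or with controls 1 and 2 alone. Mfng was 63.88 and 51.31 CPM in the P5 combination libraries (log2 +0.44 ± 0.20, edgeR adjusted p = 1.0). In P5 combination progenitors Mfng was 14.15 and 6.604 CPM (log2 +1.21) and Hes6 382.3 and 150.1 (log2 +0.94), each with an edgeR adjusted p of 1.0. P5 combination replicate 1 was the highest of the 10 P5 libraries for Dll1, Dll3, Dll4, Mfng and Hes6 in progenitors and in neurogenic cells alike, and in progenitors P5 control 3 was next for all 5. In neurogenic cells P5 control 3 lay between the combination libraries for Dll3, at 60.74 CPM, and below both for Dll4, at 19.15 CPM.

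At P2, Dll1 in neurogenic cells was 58.96 and 79.11 CPM with MEIS1, 64.14 and 62.56 with MEIS2 and 51.51 and 61.27 with the combination, against 50.79, 77.89, 96.69 and 89.6 in controls. The mean of the constructs was lower than control by log2 −0.55 ± 0.23 (edgeR adjusted p = 0.391), and the combination alone by −0.69 (edgeR adjusted p = 0.94). P2 control 1, whose cells are named as combination cells, was the lowest control. Without it, with P2 control 1 and P2 combination 2 exchanged, or with controls 3 and 4 alone, Dll1 passed the adjusted threshold. The Meis1 and Meis2 levels of both libraries are those of their titles, so the exchange is shown as an alternative only. In progenitors Lfng was 56.81 and 83.03 CPM with MEIS2 at P2 against 27.46, 39.39, 22.15 and 44.57 in controls (log2 +0.75, edgeR adjusted p = 0.269). Dll4 in P5 progenitors had 0 UMIs in both MEIS2 libraries, where 3 UMIs would be 2.304 and 0.6196 CPM, and controls held 2, 2, 32 and 0 UMIs, so no fold is given.

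**Figure D5:**
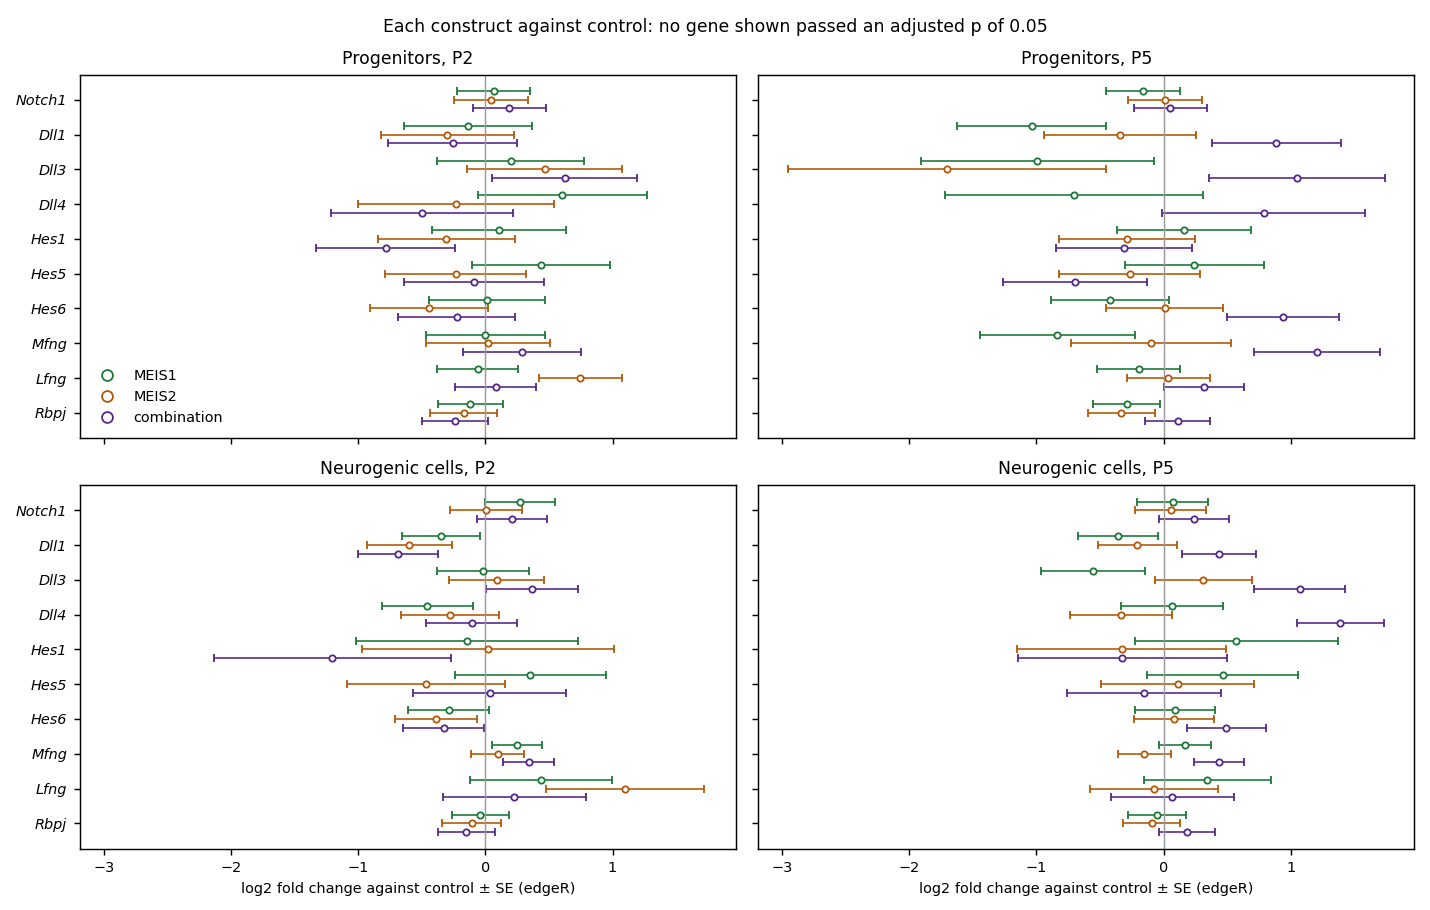
Log2 fold change ± SE of each construct against control for the 10 genes in progenitors and neurogenic cells at P2 and P5, with open circles because none passed an adjusted p of 0.05. Dll4 in P5 MEIS2 progenitors has no point since both libraries hold 0 UMIs, and Dll3 and Dll4 lie above 0 for the combination in P5 neurogenic cells.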

How the data were processed

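Per the series design text, reads were processed by the authors with Cell Ranger on mm10 with an added GFP locus, and the submitters' processing notes also name Seurat 5; filters on cells are not given in the sources used here. The deposited values are UMI counts, whole and not normalized, for each gene in each cell. A deposited description of cells adds UMI and gene counts, the percent of UMIs that are mitochondrial, the library and the cell type. Totals, genes and that percent (within 0.01) were recomputed and matched in all 79009 cells.

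Counts were summed per library and type with at least 20 cells, filtered with filterByExpr, scaled by TMM and fitted in edgeR 4.0.16 (R 4.3.3) with a mean for each of 8 groups and a two-sided quasi-likelihood test. P-values were Benjamini-Hochberg adjusted over all genes of a contrast, with a threshold of 0.05. The scripts were tested on simulated data. Shares were compared by exact permutation. DESeq2 1.42.0, other filters and scalings, depths of 1000 and 4000 UMIs, other readings of the labels, each library left out and cells without Scrublet doublets (scanpy 1.11.5, expected 6%) were alternatives. Scrublet marked 3000 cells, or 3.797%, but under 0.5% in 7 libraries, among them 0 in P2 control 2 and 1 of 6292 in P5 control 1, so its removal tests little there, and doublets remain in the main results.

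The members and lists were chosen with earlier results of these data known. The members are named in every case, and genes of the wider lists, up to 4 a direction, by order of p; results of some listed genes are not reported here. Gene positions are from GENCODE vM21.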

Additional observations from a re-analysis of the deposited data

Results flagged for a closer look

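Of 80 groups of 4 control libraries tested for a library far from the others, 6 stood out, and chance gives about 1 in 20 such groups. In P5 control 3, Dll4 was 2.776 CPM in progenitors against 0 to 0.4341 in the other controls, Mfng 57.73 in neurogenic cells against 36.48 to 40.1, Notch1 56.63 in amacrine cells against 6.145 to 9.756, and Hes5 71.2 in amacrine cells against 3.902 to 12.29. In P2 control 1, Lfng was 3.224 CPM in neurogenic cells against 5.194 to 5.563. In P5 control 2, Hes1 was 6.507 CPM in rods against 3.228 to 3.722.

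The change between ages differed between neurogenic cells and progenitors for 6 members by edgeR's test of the difference, in log2 units: Dll1 by 1.559, Dll3 by 1.573, Hes1 by 2.158, Hes6 by 1.472, Mfng by 1.895 and Lfng by 1.083.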

How the results depend on the processing

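Over the alternatives other than leaving out a library, 510 results for single members stayed the same, 30 lost the call, and 2 reversed. The 510 also count median levels of a gene in a type, which have no call. Such a level counted as the same if it moved by no more than the SD of the libraries. The number of calls that were kept is therefore smaller than 510. Both reversals are Hes1 between neurogenic cells with and without Dll1, at log2 −0.01438 with 1000 UMIs per cell and −0.21 when split by any ligand gene (0.44 as reported). With controls 3 and 4 only, the members called between ages were 2 in progenitors (Dll3 and Mfng) and 4 in rods, and any MEIS at P2 called 1 in neurogenic cells, as it did with P2 control 1 and combination 2 exchanged. The P5 combination in neurogenic cells called 1 with controls 1 and 2 only. Cells with Dll1 differed in 1 member (1000 UMIs) or 7 (4000 UMIs) in progenitors, and in 2 in neurogenic cells with 1000 UMIs, control libraries only, or at least 50 cells on each side. Cells with Hes5 differed in 2 members in progenitors with no filter on low counts or when split by Hes1 or Hes5. Without P5 control 3 and combination 1, amacrine cells had 2 members called between ages. The progenitor share of ligand UMIs at P2 with MEIS, less control, was 0.327 points without doublets (−0.437 as reported). Without thinning, the Dll1 share of neurogenic cells differed by 5.86 points between ages and 4.46 with MEIS at P2, and the Hes5 share of progenitors by 3.51 and −3.575, each against the reported direction. The cause was not tested for these.

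Leaving out 1 library gave 5 to 6 members between ages in progenitors, 3 to 7 in neurogenic cells, 6 to 8 in rods and 0 to 2 in amacrine cells. It gave 0 to 1 for any MEIS at P2 and for the P5 combination in neurogenic cells, and 2 to 4 for the Dll1 split there. The share called over all genes is not given for these fits or for those with controls 3 and 4 only. It is also not given without P5 control 3 and combination 1, so these counts stand without that background. In points, the MEIS effect on the ligand share ran from −0.249 to 5.18 (neurogenic, P2), −3.49 to 3.38 (progenitors, P2) and −3.73 to 0.84 (progenitors, P5). The MEIS effect ran from −0.842 to 0.877 for Dll1 in neurogenic cells at P5 and from −5.47 to 7.35 for Hes5 in progenitors at P2. Those directions are not settled at this number of libraries.

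Whether the replicate numbers pair the samples differs by type and group, and the labels give no shared source. Same-numbered controls of P2 and P5 correlated at 0.149, 0.172, 0.381 and 0.252 in progenitors and 0.256, 0.0686, 0.059 and −0.113 in neurogenic cells. Same-numbered controls and constructs of P5 correlated at 0.103 to 0.457 in progenitors and 0.235 to 0.587 in neurogenic cells. At P2 the values were 0.508 to 0.666 and 0.249 to 0.658 for MEIS1 and the combination. For P2 MEIS2 they were −0.253 for either replicate in progenitors, and −0.161 and −0.0833 in neurogenic cells. With the replicate block, 6 members were called between ages in progenitors, 6 in neurogenic cells (Rbpj added), 8 in rods, 1 in amacrine cells (Hes5) and 0 for MEIS, where the P5 combination called 46 genes in neurogenic cells against 3.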
